A study of Sus scrofa with 16 samples.

Results

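GSS and COQ10A are 2 redox genes of the pig ovary that were followed here by 1 transcript each, ENSSSCT00000007972 for GSS and ENSSSCT00000030426 for COQ10A, out of 27370 transcripts measured. Both were chosen by name because of their FPKM values in the luteal libraries, so that every difference between groups that touches a luteal library is given as a description without a test. FPKM counts the fragments of a transcript relative to its length and to the depth of the library. The libraries came from ovaries of unrelated Canadian Large White sows, 4 sows in each of 4 groups. LH and LL are the luteal phase, day 14 counted from the first day of estrus, in sows of high (LH) and low (LL) fecundity. FH and FL are the follicular phase, day 20 of the cycle, in sows of high (FH) and low (FL) fecundity. The labels name no treatment, and each library is ovarian tissue of 1 sow in 1 phase. The design states that sows of similar parity were picked, while the study's records give the sows of high fecundity more parities on average, and the part of parity in the values was not tested. Fewer cells of a type and less RNA per cell cannot be told apart in such tissue.

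Glutathione is the main small thiol of animal cells and serves as the electron donor of glutathione peroxidases and transferases. It is made in consecutive steps, in which glutamate-cysteine ligase joins glutamate to cysteine and glutathione synthetase, the product of GSS, adds glycine. Coenzyme Q carries electrons within the inner mitochondrial membrane and, in its reduced form, acts as a lipid antioxidant. COQ10A encodes a lipid-binding protein of that membrane that holds coenzyme Q and is needed for its normal function in respiration. The corpus luteum, the gland left after ovulation, makes progesterone from cholesterol in a reaction chain that begins in its mitochondria. This chain consumes electrons and also yields reactive oxygen.

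The label of high expression in the luteal phase described GSS in 7 of 8 luteal libraries and did not describe COQ10A. GSS in LH2, at 90.9 FPKM, lay within the range of the 8 follicular libraries, 81.4 to 145 FPKM. LH2 also stood apart over the other transcripts. Across 11025 transcripts without GSS and COQ10A, its mean Pearson r was 0.610 to the other luteal libraries and 0.624 to the follicular ones, while each of the other 7 luteal libraries had a higher mean r to luteal than to follicular libraries. This measure does not separate the phases cleanly, since FH1, FH3, FL2 and FL4 also had the higher mean r to luteal libraries. The means and log2 differences of GSS that rest on LH2 are therefore given with and without it. Ratios, intervals and the differences of listed genes that involve LH are given only with LH2 in. Few markers could be checked, because transcripts were linked to a gene symbol only where the study's lists named them. Of 13 luteal markers 2 were linked, PTGFR and FDXR, of 10 granulosa and follicle markers 1, FOXL2, and of 13 markers of other cells 3, CD68, COL3A1 and PECAM1.

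The steps between low values gave the depth. Between 165765 and 304226 fragments per library accounted for the FPKM values, far below the reads that the study sequenced, and the reason was not tested. One GSS fragment was worth 0.744 to 1.38 FPKM and 1 COQ10A fragment 2.80 to 5.29 FPKM. In all, 7160 fragments stood behind the GSS values and 97 behind those of COQ10A, so that the 2 transcripts differ widely in precision. A COQ10A value listed at 0 allows up to 3 fragments, which is 8.39 to 15.9 FPKM by library, and these limits cover counting error only.

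GSS was among the more abundant transcripts of the luteal ovary. In LL it reached 1224, 1621, 1181 and 1118 FPKM, and the 4 libraries lay close together. In LH it was listed at 743, 90.9, 746 and 331 FPKM, so that LH2 and LH4 fell well below LH1 and LH3. In FH the values were 145, 112, 118 and 132 FPKM. In FL they were 118, 85.6, 107 and 81.4 FPKM. The follicular libraries were thus alike, and all but 1 of the luteal libraries lay above the highest of them. By rank within the library, counted from the most abundant transcript, GSS stood between 38 and 57 in LL, between 79 and 482 in LH, between 343 and 442 in FH and between 418 and 661 in FL.

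The group means put GSS in the order LL, LH, FH, FL. The mean was 1286 ± 227 FPKM in LL (SD, n = 4) and 478 ± 323 FPKM in LH (SD, n = 4). It was 127 ± 14.7 FPKM in FH (SD, n = 4) and 98.0 ± 17.3 FPKM in FL (SD, n = 4). LL and LH did not overlap, LH and FH overlapped through LH2 alone, and FH and FL overlapped. The spread relative to the mean was 67.7% in LH, against 17.7% in LL, 11.6% in FH and 17.7% in FL. Without LH2 the LH mean was 607 ± 239 FPKM (SD, n = 3), which left the order of the groups as it was.

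**Figure D1:**
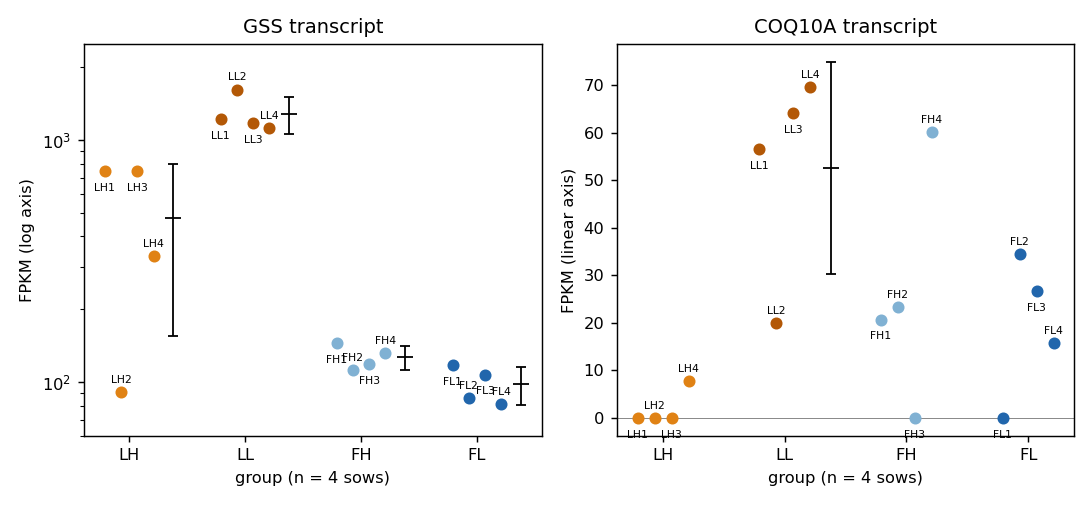
FPKM of the GSS transcript (left, log axis) and of the COQ10A transcript (right, linear axis) in the 16 libraries, 1 labelled point per sow, with mean ± SD (n = 4) in black where no library of the group is listed at 0. GSS lies at 1118 FPKM or more in all LL libraries and at 145 FPKM or less in all follicular libraries and LH2, and COQ10A is listed at 0 in 3 LH libraries, FH3 and FL1.

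Set against the mean of the 8 luteal libraries, 882 ± 504 FPKM (SD, n = 8), the level of GSS in LL was 127% to 184% and in LH 10.3% to 84.6%. FH stood at 12.7% to 16.5% of that mean and FL at 9.23% to 13.3%. The luteal mean was thus a level that no LH library reached and that every LL library passed. Without LH2 it was 995 ± 420 FPKM (SD, n = 7). The mean of the 8 follicular libraries was 112 ± 21.4 FPKM (SD, n = 8).

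COQ10A followed another order. Of the LH libraries, LH4 had 7.86 FPKM and the other 3 were listed at 0. In LL it was listed at 56.5, 20.0, 64.2 and 69.6 FPKM. FH held 20.7, 23.4, 0 and 60.2 FPKM, and FL held 0, 34.4, 26.8 and 15.7 FPKM. All 4 LL libraries lay above all 4 LH libraries, whereas both follicular groups ran from 0 into the LL range and overlapped with LL and with each other. In fragments, LH held 2 in all, LL 47, FH 27 and FL 21. The 0 of FH3 and of FL1 and those of LH1, LH2 and LH3 are each compatible with a level of up to 3 fragments.

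The mean of COQ10A over the luteal libraries, 27.3 FPKM, was not a level that any luteal library had. LH lay at 0% to 28.8% of it and LL at 73.3% to 255%. FH lay at 0% to 221% and FL at 0% to 126% of it. The follicular mean was 22.7 FPKM, and 49 fragments in the luteal libraries stood against 48 in the follicular ones. COQ10A as measured here thus had its highest group in LL and its lowest in LH, both of the luteal phase. Leaving out LH2, in which COQ10A was listed at 0, gave a luteal mean of 31.2 FPKM.

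Within the luteal phase, LH and LL as listed did not overlap for either transcript. How many of all transcripts lack such an overlap was not counted, here or in the other comparisons. For COQ10A the gap was small in fragments, since LL2 held about 5 and a listed 0 allows up to 3. GSS differed by -1.82 between LH and LL on the log2(FPKM + 1) scale (SE 0.57, 95% interval -3.06 to -0.58), and the LL mean was 2.69 times the LH mean in FPKM. Without LH2 the log2 difference was -1.16 (SE 0.31). COQ10A differed by -4.81 on the same scale (SE 0.87, 95% interval -6.71 to -2.92), a size that depends on the pseudocount because 3 of 4 LH libraries were listed at 0. Counted in fragments per depth, LL held 28.0 times the COQ10A of LH, with an exact 95% counting interval of 7.33 to 238, since only 2 fragments stood behind LH. This interval pools the fragments of the sows in each group, and it leaves out the spread between sows. Both members were chosen for their luteal values, which enter this contrast. In it limma called 0.0199% of 5015 transcripts at an adjusted p under 0.05, while 7.72% passed the study's threshold. That threshold is a p under 0.05 before adjustment together with a log2 difference of at least 1 in size. The median transcript was 0.26 higher in LH, and relative to that median the differences were -2.08 for GSS and -5.07 for COQ10A.

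Fecundity within the follicular phase was the 1 comparison that the choice of the members had not used, and neither member passed its test there. GSS was 0.38 higher in FH than in FL on the log2(FPKM + 1) scale (SE 0.31, 95% interval -0.29 to 1.04, limma adjusted p = 0.934), and in FPKM the FH mean was 1.29 times the FL mean. The exact two-sided permutation test of GSS alone gave p = 0.0571, where 4 libraries against 4 allow no p below 0.0286. FH2 lay below FL1 and FH3 just above it, so that the groups overlapped. COQ10A differed by 0.24 (SE 1.30, 95% interval -2.56 to 3.05, limma adjusted p = 0.995; exact permutation p = 0.829), an interval so wide that a several-fold change in either direction was not detectable at this depth. Over all 8296 transcripts tested in FH vs FL, limma made 0 calls at an adjusted p under 0.05 (0%), while 396 had an unadjusted p under 0.05, 4.41% passed the study's threshold, and limma voom on the recovered fragments made 34 adjusted calls. Whether the difference between high and low fecundity itself differed between the phases was not tested, since the members were chosen for their luteal values.

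The phase was compared within each class of fecundity. GSS was lower in FL than in LL, by -3.70 on the log2(FPKM + 1) scale (SE 0.47, 95% interval -4.69 to -2.71), with no overlap, and the LL mean was 13.1 times the FL mean in FPKM. In sows of high fecundity GSS was lower in FH than in LH, by -1.50 (SE 0.47, 95% interval -2.49 to -0.52), and the LH mean was 3.77 times the FH mean. Here the groups overlapped through LH2, and without it the log2 difference was -2.16. GSS was thus lower in the follicular libraries in both classes, although the median transcript was higher in them, by 0.76 among sows of low and by 0.35 among sows of high fecundity. Relative to these medians GSS differed by -4.46 and by -1.85.

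The phase differences of COQ10A pointed in opposite directions. It was lower in FL than in LL, by -2.10 on the log2(FPKM + 1) scale (SE 1.18, 95% interval -4.56 to 0.36), and the groups overlapped. Without FL1, which was listed at 0, the difference was -0.93. In FH it was 2.96 higher than in LH (SE 1.18, 95% interval 0.50 to 5.42), and these groups overlapped too, because FH3 was listed at 0. With a pseudocount of 0.1 in place of 1 this difference was 4.62. As background to both members, limma called 1.41% of 11027 transcripts at an adjusted p under 0.05 in FL vs LL and 17.8% passed the study's threshold. In FH vs LH these shares were 0.0181% and 7.08%. The LH and LL libraries serve both the fecundity and the phase comparisons, so that the values of one contrast are not independent of those of the other.

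**Figure D2:**
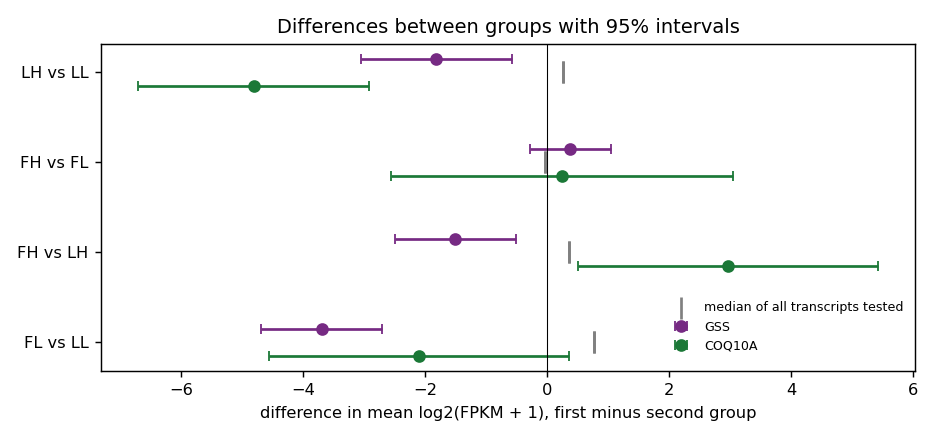
Difference in mean log2(FPKM + 1), first group minus second, for GSS (purple) and COQ10A (green) in the 4 comparisons, with 95% intervals from limma, and the median over all transcripts tested as grey ticks. GSS lies left of the median in LH vs LL, FH vs LH and FL vs LL, COQ10A lies right of it in FH vs LH, and both intervals include 0 in FH vs FL.

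Apart from the group means, no relation between the members passed its adjusted test. Over the 16 libraries, with each value taken as its deviation from the group mean of log2(FPKM + 1), GSS and COQ10A had a Pearson r of -0.10 (exact permutation p = 0.743 within groups, adjusted p = 0.868) and a Spearman rho of -0.35 (p = 0.240 by the same exact permutation, adjusted p = 0.868). Without LL1 and LL2, the libraries farthest from the median of GSS before group means were taken out, r was -0.07. As a deviation from its group mean, LH2 was far out, at 6.52 in log2(FPKM + 1) against an LH mean of 8.50. LL1 was near its group mean, at 10.26 against an LL mean of 10.31. Without LH2, r was -0.48 (exact permutation p = 0.0659). In the 8 follicular libraries r was -0.23 (exact permutation p = 0.589). In the 8 luteal libraries it was -0.12, given as a description, since COQ10A was listed at 0 in 3 of them. The adjustment ran over 8 tests, the luteal correlations among them, and each adjusted p was 0.868. The values over 16 libraries hold the same luteal COQ10A zeros, and the luteal values for which the members were chosen. Their p-values therefore serve as a description. The p without LH2 was not adjusted, and LH2 was singled out after its values were seen.

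Without LH2 and LH4 the luteal r was -0.996 over 6 libraries, again a description. LH1 and LH3 are both listed at 0 for COQ10A, so that this r came from the 4 LL libraries alone. Among them LL2 had the highest GSS, 1621 FPKM, and the lowest COQ10A, 20.0 FPKM, while LL4 had the lowest GSS, 1118 FPKM, and the highest COQ10A, 69.6 FPKM. LL2 held about 5 COQ10A fragments and LL4 15. In the follicular libraries r turned from -0.23 to 0.09 (exact permutation p = 0.917) when FL2 and FL4 were left out.

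**Figure D3:**
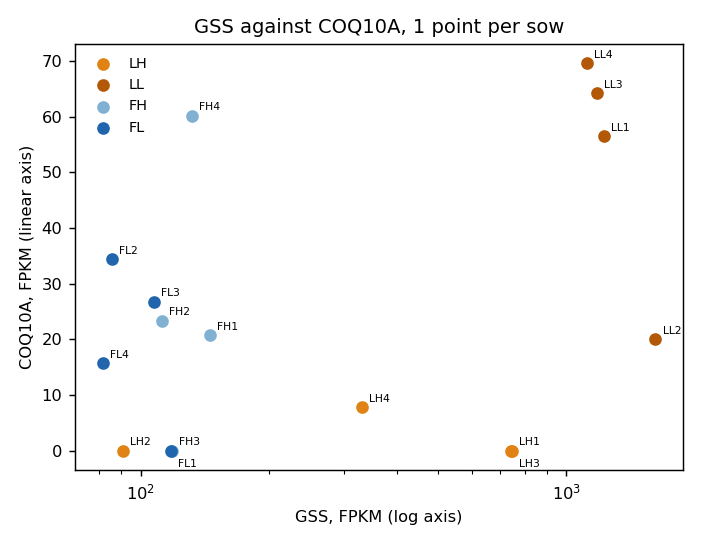
GSS (log axis) against COQ10A (linear axis) in FPKM, 1 point per sow, coloured by group. LL1, LL3 and LL4 are high in both transcripts, LH1 and LH3 are high in GSS with COQ10A listed at 0, and FH4 is high in COQ10A with GSS at 132 FPKM.

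The number of transcripts detected at 0.5 FPKM or more ran from 4440 in LL2 to 9660 in FL3. This number depends on the depth of a library as well as on how evenly it is spread. The number was 4440 to 6081 in LL, 4622 to 8132 in LH, 6899 to 9194 in FH and 7215 to 9660 in FL. LH2 had the most of the luteal libraries. GSS was thus highest in the group with the fewest transcripts detected. LH2 was also the deepest luteal library, with 297487 fragments, against 189241 to 204675 in LL. Within groups GSS and this number had a Pearson r of -0.31 (exact permutation p = 0.577, adjusted p = 0.868) and a Spearman rho of -0.06 (exact permutation p = 0.868, adjusted p = 0.868). Without LL2 and LH1 r was -0.003, and without LH2 alone it was 0.12. The part of depth and of library composition in the differences between groups was not tested. The 10 most abundant transcripts took 21.6% to 33.4% of the fragments of a library.

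ACSS2, an acetyl-CoA synthetase that lies next to GSS in the RefSeq gene order of Sscrofa11.1, gave a comparison for the locus. Its transcript ENSSSCT00000007971 ran from 49.2 to 105 FPKM over the 16 libraries, with a median of 74.8 FPKM. Its log2 differences were -0.26 in FL vs LL, -0.03 in FH vs LH, 0.07 in FH vs FL and -0.17 in LH vs LL, and limma adjusted p-values ran from 0.701 to 0.999. On the other side, the annotated long non-coding gene LOC106506661 overlaps GSS, and COQ10A overlaps CS, the citrate synthase gene. How strand was handled in the counting is not given in the sources used here, so that reads of these overlapping genes may have been shared. The positions in the assembly of the table are not given, since no annotation of that build was used here. The genes directly beside COQ10A, ANKRD52 and CS, were not linked to a transcript. Values of the linked genes farther out, MYH7B by GSS and SLC39A5 by COQ10A, are not reported here.

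Among 11026 other transcripts, 11 had a Pearson r of 0.9 or more to GSS over the 16 libraries on the log2(FPKM + 1) scale, and 56 had an r of 0.8 or more. In the opposite direction 8 had an r of -0.9 or below and 149 an r of -0.8 or below. These correlations describe 16 libraries that share groups and composition, and they carry no test. The 5 most like it were ENSSSCT00000022831 (r = 0.97), ENSSSCT00000011384 (r = 0.95), TIMP1 (r = 0.94), ENSSSCT00000014214 (r = 0.93) and TCTN1 (r = 0.93), of which those given by ID had no symbol. Without LH2 the r of these 5 lay between 0.92 and 0.97.

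TIMP1, a secreted inhibitor of matrix metalloproteinases, was listed at 50.6, 0, 30.7 and 46.2 FPKM in LH and at 50.9, 109, 69.7 and 63.4 FPKM in LL. In the follicular libraries it was listed at 0 except for 10.8 FPKM in FH1. TCTN1, a protein of the transition zone at the base of the primary cilium, ran from 13.9 to 117 FPKM in LH, with LH2 lowest, and from 148 to 211 FPKM in LL. It ran from 12.2 to 53.9 FPKM in FH and from 8.56 to 35.1 FPKM in FL. In all 5 of these transcripts, as in GSS, LH2 was the lowest luteal library. ENSSSCT00000022831 was more abundant than GSS and stood at 1099, 132, 1537 and 517 FPKM in LH and at 1440 to 2425 FPKM in LL, against 133 to 374 FPKM in FH and 81.5 to 183 FPKM in FL. DUOXA1, the maturation factor of a dual oxidase that makes hydrogen peroxide, came later in that order (r = 0.92) and was picked out after its values were seen for its place in redox chemistry. It was listed at 196, 0, 198 and 44.0 FPKM in LH, at 127 to 711 FPKM in LL and at 3.30 to 30.6 FPKM in the follicular libraries.

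No transcript followed COQ10A as closely. Only 1 transcript had an r of 0.8 or more, ENSSSCT00000014054 (r = 0.82), and 8 had an r of 0.7 or more, while 6 had an r of -0.8 or below and 23 an r of -0.7 or below. The next were NIPSNAP3A (r = 0.76), the muscarinic receptor CHRM5 (r = 0.76), the zinc finger gene ZNF668 (r = 0.72) and DUSP14 (r = 0.72), a phosphatase of MAP kinases. In sparse values such correlations are weak, and without LH2 they lay between 0.67 and 0.80 for all 5. DUSP14, the most abundant of them, ran from 37.3 to 66.5 FPKM in LH, from 62.3 to 131 FPKM in LL, from 60.8 to 113 FPKM in FH and from 69.2 to 109 FPKM in FL. NIPSNAP3A was listed at 4.31, 0, 0 and 6.86 FPKM in LH and at 9.21 FPKM or more in every other library. NIPSNAP3A, CHRM5, ZNF668 and DUSP14 were linked through the study's list of differential transcripts, which was made from these libraries.

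**Figure D4:**
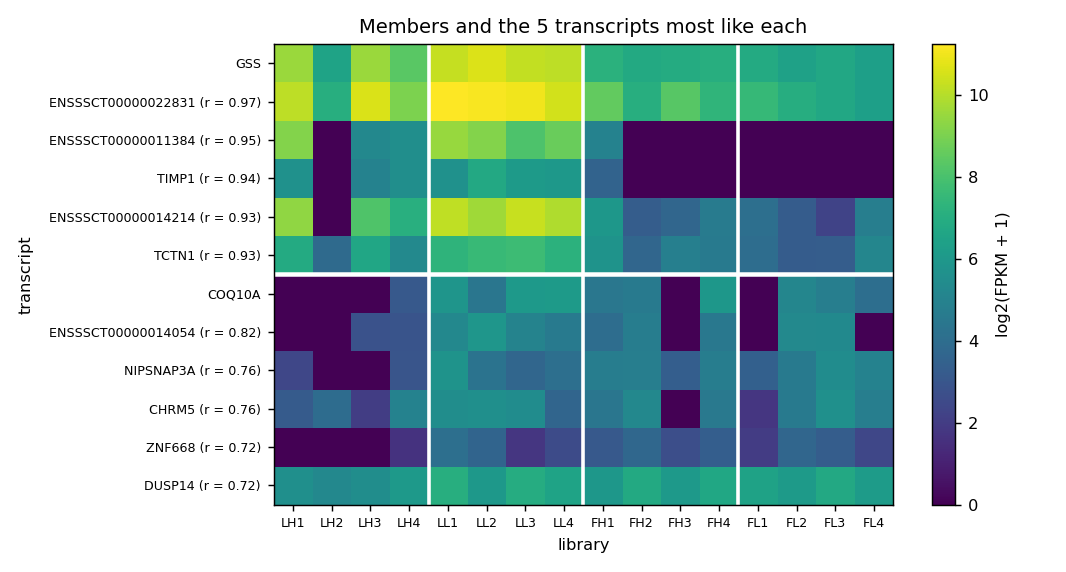
Level on the log2(FPKM + 1) scale (colour) in the 16 libraries for GSS and the 5 transcripts most like it (upper block) and for COQ10A and the 5 most like it (lower block), with Pearson r over the 16 libraries. LH2 is darker than the other luteal libraries throughout the upper block, and in the lower block COQ10A and ZNF668 are at 0 in LH1, LH2 and LH3.

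Genes of the same pathways were taken from 6 lists, and 23 of their genes could be linked to a transcript. Linked were 4 of 15 genes of glutathione synthesis and breakdown, 2 of 33 glutathione-using enzymes and 3 of 30 other antioxidant and NADPH enzymes. Of coenzyme Q synthesis 3 of 12 were linked, of the nuclear respiratory chain 5 of 55, and of mevalonate and sterol supply 6 of 16. Most listed genes were thus not seen, and the counts do not survey the pathways. By limma, 0 of the tested genes had an adjusted p under 0.05 in any of the 4 comparisons. At an unadjusted p under 0.05 there were 4 of 13 in FL vs LL, 2 of 13 in FH vs LH, 2 of 10 in FH vs FL and 1 of 9 in LH vs LL. The study's threshold was passed by 3 of 13, 1 of 13, 2 of 10 and 0 of 9 in the same order, that is 23.1%, 7.69%, 20.0% and 0%, beside the 17.8%, 7.08%, 4.41% and 7.72% of all transcripts given above. These shares are not alike in make-up. Some listed genes, COQ6 among them, were linked through the study's list of differential transcripts, which was made from these libraries. The median log2 difference of the listed genes was 0.37 in FL vs LL, 0.51 in FH vs LH, -0.38 in FH vs FL and -0.11 in LH vs LL. Over all transcripts tested it was 0.76, 0.35, -0.03 and 0.26.

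Glutathione synthesis and breakdown was represented by 4 linked genes, 2 of which had enough signal for a test. GCLC, the catalytic subunit of glutamate-cysteine ligase and thus the enzyme just before GSS, was listed at 0 in 8 of 16 libraries and reached 5.44 FPKM at most. Its log2 difference was 0.37 in FL vs LL (SE 0.80, adjusted p = 0.806) and it had too few values for LH vs LL. It therefore gave no pattern to set beside that of GSS. GGT6, of the gamma-glutamyltransferase family, was listed at 0 in LL and at 2.60, 0, 3.11 and 14.6 FPKM in FL, and passed the study's threshold there (adjusted p = 0.227). GGT1 had signal only in LL2, 26.1 FPKM, and DPEP1 was listed at 0 in all 16 libraries.

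The enzymes that use glutathione had 2 linked genes. PRDX6, a peroxiredoxin that draws on glutathione, ran from 2.45 to 14.3 FPKM in 15 libraries and reached 62.5 FPKM in FL4. Its log2 difference was 1.10 in FL vs LL (SE 0.74, adjusted p = 0.404), opposite in sign to that of GSS. TXNDC12 had signal in LL2 and LL3 alone. Of the other antioxidant genes, NFE2L3, a transcription factor related to the regulators of antioxidant genes, was the most abundant at 122 to 527 FPKM. Its log2 difference was -0.86 in LH vs LL (SE 0.37, adjusted p = 0.576) and 0.89 in FH vs LH (SE 0.38, adjusted p = 0.589). SOD3 was listed at 0 in 12 libraries and TXNRD3 in 14.

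Coenzyme Q synthesis had 3 linked genes. COQ6, a monooxygenase that hydroxylates the ring of coenzyme Q, was listed at 9.07, 15.8, 31.4 and 4.84 FPKM in LH and at 8.04 to 18.3 FPKM in LL. In FH it was listed at 1.82, 0, 0 and 0 FPKM and in FL at 2.08 to 17.0 FPKM. As listed, FH thus lay below each of the other groups, with no overlap. Only 61 fragments stood behind COQ6 in the 16 libraries. The limit of up to 3 fragments for a listed 0 applies here too, so that an overlap is not excluded. The log2 difference was -3.37 in FH vs LH (SE 0.73, adjusted p = 0.112) and -2.37 in FH vs FL (SE 0.85, adjusted p = 0.914). It passed the study's threshold in both comparisons, and limma voom on the recovered fragments called it in FH vs LH. In the same groups COQ10A was higher in FH than in LH, so that the 2 coenzyme Q genes had opposite signs there. COQ5, a methyltransferase of the same pathway, ran from 0 to 86.6 FPKM and passed no threshold, and COQ8A was listed at 0 in 12 libraries. Of the coenzyme Q-linked respiratory chain 5 genes were linked, of which only NDUFA1, a subunit of complex I, had enough signal. It ran from 0 to 52.5 FPKM and had a log2 difference of 2.26 in FH vs LH (SE 1.16, adjusted p = 0.711).

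The mevalonate pathway supplies both sterols and the side chain of coenzyme Q, and 6 genes of this list were linked. FDPS, which makes farnesyl diphosphate, had a log2 difference of -2.18 in FL vs LL (SE 0.91, adjusted p = 0.208). STARD3, a cholesterol transporter of late endosomes, had 1.48 in FL vs LL (SE 0.59, adjusted p = 0.190) and -1.07 in FH vs FL (SE 0.43, adjusted p = 0.914). CYP51A1 and SCARB1 passed no threshold. SCARB1, PRDX6, NFE2L3, COQ5 and COQ6 were linked through the study's list of differential transcripts, so that their differences are not independent evidence.

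Among the markers, PTGFR, the receptor through which prostaglandin F ends the life of the corpus luteum, had the sign of GSS in FL vs LL and in LH vs LL, and in FH vs LH its log2 difference was -0.07 (SE 0.82, adjusted p = 0.998). It was listed at 14.6, 23.1, 5.74 and 13.4 FPKM in LL and at 1.2 to 3.29 FPKM in LH. No FL library had a value above 0, and FH was listed at 0, 8.22, 0 and 5.41 FPKM. PTGFR fell in FL vs LL (limma adjusted p = 0.0260, the 1 listed gene called) and had a log2 difference of -2.24 in LH vs LL (SE 0.78, adjusted p = 0.425). Without LL1, LL2, LL4, FL2 or FL3, each in turn, it was no longer called. Only 44 fragments stood behind PTGFR in the 16 libraries, and a listed 0, as in FL, allows up to 3. COL3A1, a collagen of connective tissue, had a log2 difference of -1.92 in FL vs LL (SE 0.71, adjusted p = 0.162), and CD68, a macrophage marker, one of 1.81 (SE 0.85, adjusted p = 0.257). FOXL2, of granulosa cells, had signal in 5 libraries, among them LH1 and LL4. FDXR was listed at 0 in 15 libraries and PECAM1 in 14. PTGFR and COL3A1 were linked through the study's list of differential transcripts. The part of cell composition in the differences of GSS and COQ10A was not tested.

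**Figure D5:**
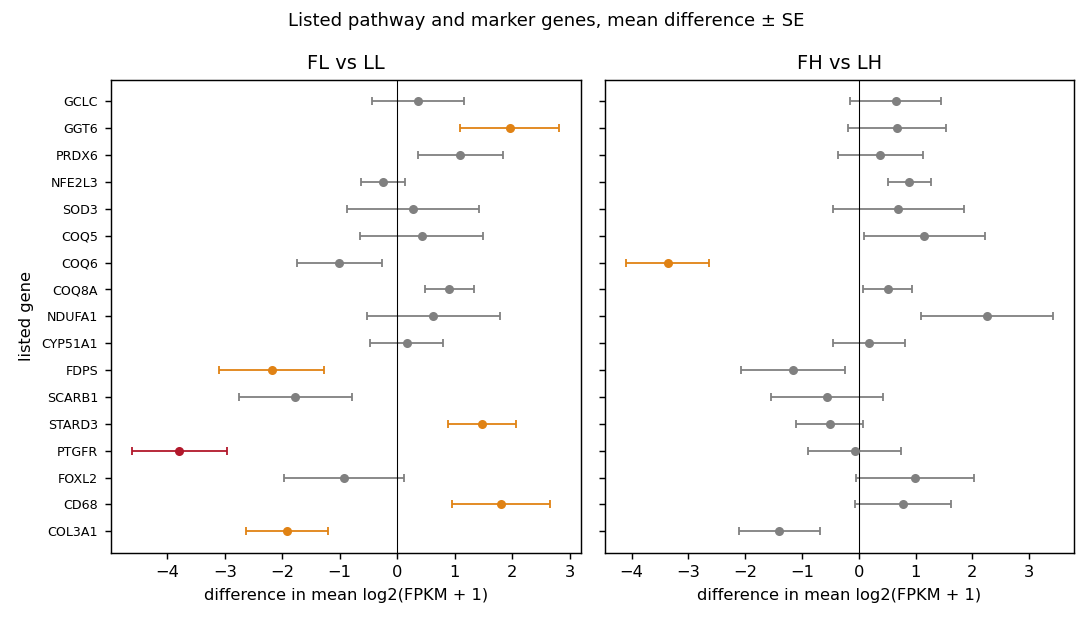
Difference in mean log2(FPKM + 1) ± SE for the 17 linked pathway and marker genes tested in FL vs LL (left) and FH vs LH (right), in red where the limma adjusted p is under 0.05, in orange where only the study's threshold was passed, and in grey otherwise. PTGFR in FL vs LL is the only gene in red.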

How the data were processed

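The authors removed ribosomal RNA, made strand-specific libraries, mapped the reads to the pig assembly Sscrofa10.2 and computed 1 deposited table of FPKM per transcript, 16 libraries in all, with the transcript length. The methods name RSEM for this step, and the submitters' processing notes name HISAT2 2.0.1, StringTie 1.0.4 and DESeq2 1.6.3. FPKM is scaled within a library, and abundant transcripts therefore lower the rest. Groups follow the sample titles. Nothing but separate sows distinguishes the 4 libraries of a group.

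Differences and their intervals were fitted to log2(FPKM + 1) by limma 3.58.1 (R 4.3.3), with a mean trend and Benjamini-Hochberg adjustment over all transcripts that reached 0.5 FPKM in 4 or more of the fitted libraries. LH vs LL and FH vs FL used their own 8 libraries, FH vs LH and FL vs LL all 16. A pseudocount understates the change of low transcripts. Fragments were recovered from the steps of the FPKM values (92.4% to 94.8% of low values within 0.05 of a whole number); limma voom on them was an alternative. Exact permutations used scipy 1.17.1. The fit, the depth estimate and the permutations were tested on simulated data. For the fit this covered FH vs FL alone, with large changes in transcripts of many more fragments than COQ10A has. It therefore gives no measure of the fit for COQ10A or of the fits to all 16 libraries.

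The members and lists were chosen with earlier results of these data known. Named are both members, the 5 transcripts with the highest r to each, and of each of the 9 gene lists the genes that passed an adjusted or the study's threshold, otherwise up to 4 of the highest mean. Symbols came from the study's lists of differential transcripts and predicted miRNA targets (3847 transcripts), used for names alone. Values for some genes of the lists are not reported here. Alternatives were another pseudocount, filter, scaling, variance model, set of libraries or count model, the replicate block, and each library left out. No sequence is shown, since no sequence table was used here.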

Additional observations from a re-analysis of the deposited data

Results flagged for a closer look

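In 2 of 8 groups of 4 libraries, 1 library stood farther from its nearest neighbour than the Dixon critical value of 0.829 times the range of the group. Chance gives this in about 1 group in 20 for values that are not at 0. COQ10A in LH4 was 7.86 FPKM while the other LH libraries were listed at 0, and it rests on 2 fragments, under the 3 that a listed 0 allows. With 3 of 4 values at 0 any other value gives this gap, so that the chance rate does not apply to it. COQ10A in LL2 was 20 FPKM, against 56.5 to 69.6 FPKM in the other LL libraries, with a gap of 0.831 of the range.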

How the results depend on the processing

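The log2 difference of GSS in FH vs FL was 0.30 to 0.47 over 17 alternatives (limma adjusted p 0.728 to 0.990). That of COQ10A was -0.92 to 1.49 over the same alternatives (adjusted p 0.950 to 1.00) and changed sign without FH2 (-0.04), FH4 (-0.49) or FL1 (-0.92). Scaling moved GSS in FL vs LL to -4.19 (median-ratio) and -4.00 (quantile normalization), and a pseudocount of 0.1 moved COQ10A in LH vs LL to -7.31 and in FH vs LH to 4.62. Leaving out 1 library at a time, GSS lay between -2.17 and -1.16 in LH vs LL, between -2.16 and -1.15 in FH vs LH and between -3.79 and -3.59 in FL vs LL. COQ10A lay between -5.60 and -4.55, between 2.23 and 4.21 and between -2.65 and -0.93, in the same order. Within groups, r of GSS and COQ10A ran from -0.48 to -0.03, and r of GSS with the transcripts detected from -0.56 to 0.12, the latter without LH2. Adjusted calls among listed genes ran from 0 to 1 in FL vs LL when 1 library was left out, and limma voom on recovered fragments called 2 there, PTGFR and COL3A1, and 1 in FH vs LH, COQ6. Over all transcripts, FL vs LL had 155 adjusted calls, but 58 without a filter, 98 under quantile normalization, 94 without the mean trend, 602 with only those 2 groups in the fit, 682 by limma voom and 45 to 311 with 1 library left out. In LH vs LL the 1 call became 18 without the mean trend and 28 by limma voom, in FH vs FL 0 became 18 and 34, and in FH vs LH limma voom made 19 against 2. Replicate numbers are shared between groups. The deviations of libraries with the same number correlated between -0.07 and 0.06, which gave no sign of pairing over all transcripts. A weak pairing, or one in some genes only, could not be seen in this way. With a replicate block, GSS in FH vs FL kept 0.38 (adjusted p = 0.978), and no call among the members or listed genes changed. Depth limits COQ10A, with 97 fragments in all. The causes of these shifts were not tested.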
